A study of Mus musculus with 23 samples.

Results

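The genes described are 8 transcription factors and output genes of the circadian clock: *Dbp*, *Tef*, *Hlf*, *Nfil3*, *Bhlhe40*, *Bhlhe41*, *Rora* and *Usp2*. They were chosen by name as clock output and PAR bZIP genes, and every non-control probe that carries one of these names was followed. There were 17 such probes, of which 16 passed the filter on dim probes, so all 8 genes were measured among the 21056 genes with a kept probe. The kept probe of highest mean signal stands for each gene, and the other probes are described where they differ. Liver RNA of male C57BL/6J mice was hybridized to 1-color Agilent arrays, 1 array per mouse, and signals are given as normalized log2 values. WT mice were bought at 6 weeks of age and acclimatized for 2 weeks, whereas the *Pxr*-/- mice, which lack the pregnane X receptor PXR and had been backcrossed to C57Bl/6J, came from the colony of the study, so that genotype and colony cannot be told apart. Mice of each genotype received corn oil alone (WT CONT, n = 6, and *Pxr*-/- CONT, n = 6) or the rodent PXR ligand pregnenolone 16α-carbonitrile at 100 mg/kg in corn oil (WT PCN, n = 5, and *Pxr*-/- PCN, n = 6). Injections were intraperitoneal and given once a day for 4 days. Livers were taken at ZT6, that is 6 h after lights on and after the last injection. They had free access to food, and the labels call them fed, while the study describes mice at this hour as partly fasted. With 1 time point, a shift of a rhythm and a change of its amplitude cannot be told apart. In bulk liver, fewer cells of a type and less RNA per cell cannot be told apart either.

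DBP, TEF and HLF are the PAR bZIP family, activators that bind D-box elements as dimers, and NFIL3, also called E4BP4, is a repressor that binds the same element. In the liver, *Dbp* is driven through E-box elements by CLOCK and BMAL1, its transcript peaks late in the light phase, and the family is known for driving genes of drug metabolism. BHLHE40 and BHLHE41 repress from E-boxes, RORα activates from ROR elements, and USP2 is a deubiquitinase whose transcript follows the clock in many tissues.

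The promoter sequences of the genes were read for these 3 elements because they are the sites through which these factors act. Promoter windows of RefSeq, build GRCm38.p6, covered 250 bases before and 50 after the start, and were found for 7 of the 8 genes, with 2 for *Tef*; *Bhlhe40* had none. The E-box was searched as CACGTG, the D-box as TTATGTAA or TTACGTAA and the ROR element as TAGGTCA, on both strands, and none of these words contains another. The E-box was in 7.15%, the D-box in 1.06% and the ROR element in 2.61% of all 32851 windows. Both *Tef* windows and the *Bhlhe41* window held an E-box, whose first base lay at -127 and -138 from the start for *Tef* and at -153 for *Bhlhe41*. The *Nfil3* window held a ROR element read on the other strand, at -12. These letters were not in the windows of *Dbp*, *Hlf*, *Rora* and *Usp2*, and no member window held a D-box. The stretches below show each match in capitals with up to 40 bases on either side, 5′ to 3′ on the strand of the gene and ending before the start: the first *Tef* window, chr15:81802506-81802591 (+), the second, chr15:81811236-81811321 (+), *Bhlhe41*, chr6:145865528-145865613 (-), and *Nfil3*, chr13:52981040-52981091 (-).
Tef window 1: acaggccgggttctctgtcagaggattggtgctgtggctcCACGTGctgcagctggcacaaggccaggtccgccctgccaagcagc
Tef window 2: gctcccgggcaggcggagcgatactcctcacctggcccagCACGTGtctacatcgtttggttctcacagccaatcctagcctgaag
Bhlhe41: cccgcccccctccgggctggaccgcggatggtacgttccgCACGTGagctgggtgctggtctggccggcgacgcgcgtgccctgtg
Nfil3: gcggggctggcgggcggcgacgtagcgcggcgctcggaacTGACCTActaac

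Each array had between 29510 and 33321 probes well above background, and none of the kept member probes was saturated. On its kept probe *Nr1i2*, the gene that encodes PXR, ranged from 10.16 to 12.41 in *Pxr*-/- livers and from 10.63 to 12.46 in WT livers. The deleted exons are not given in the sources used here, so this probe does not check the genotype. *Cyp3a11*, a PXR target, lay between 16.9 and 17.29 in WT PCN livers and did not exceed 15.13 in the other 3 groups. The 6 hepatocyte markers were well above background on all 23 arrays, with a summed log2 level of 20.15 to 20.41.

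Of the 8 genes, 5 were called lower with PCN in WT livers and none higher, with the call of *Bhlhe41* resting on dim readings. *Usp2* fell by 1.58 on the log2 scale, *Dbp* by 1.49, *Hlf* by 0.99 and *Tef* by 0.81. *Bhlhe41*, the other gene called, was not well above background on any WT PCN array. Its WT CONT mean was 1.34-fold above the background limit of those arrays, which is under the fold a call needs. Among all genes tested, 2.39% were called lower and 3.79% higher in this comparison, where a call needs an adjusted p of at most 0.05 in limma and a change above 1.5-fold. The median change of the 8 genes was -0.73, against -0.02 over all genes. *Rora* was lower by 1.38-fold, under the fold required, and *Nfil3* and *Bhlhe40* did not pass the test. Within the 2 array washing batches the change was -2.78 and -0.08 for *Usp2* and -2.01 and -0.78 for *Dbp*, and no member was called in the second. The values of each mouse are plotted by group and washing batch.

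**Figure D1:**
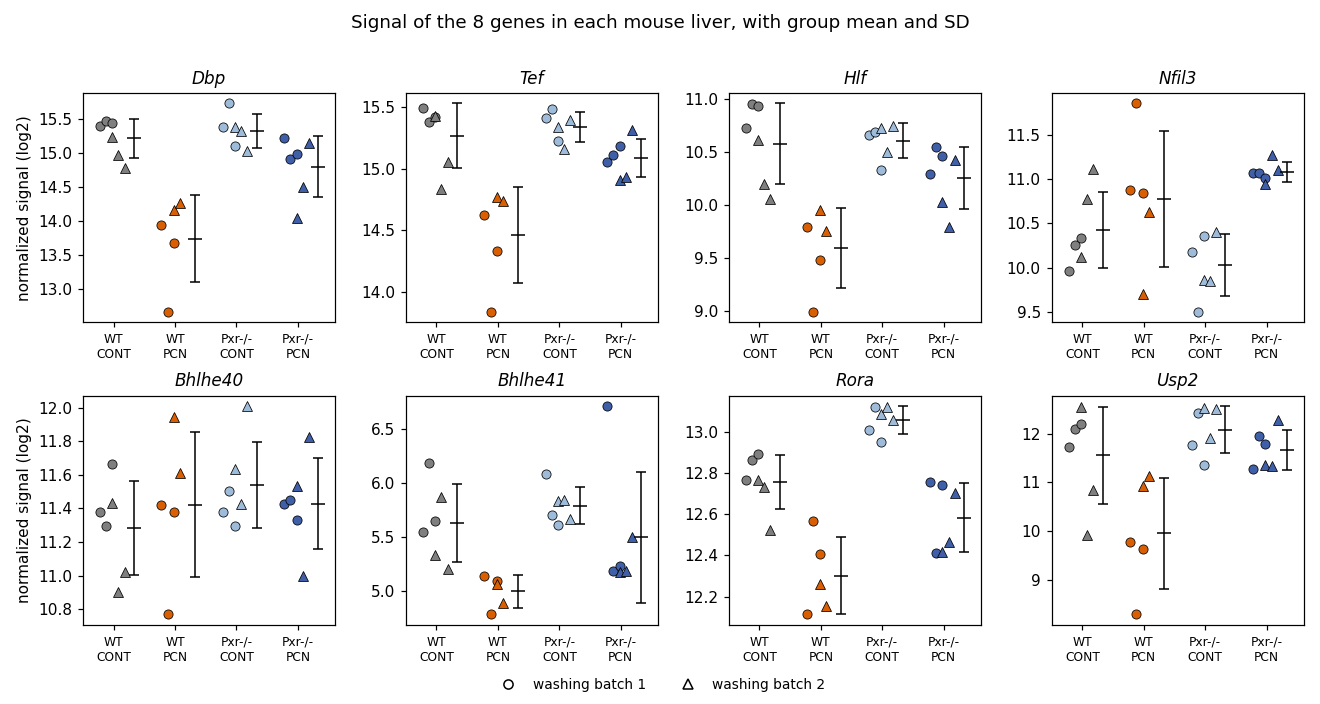
Normalized log2 signal (y axis) of the 8 genes in each of 23 livers, by group (x axis). Circles are arrays of washing batch 1 and triangles of batch 2, and the bar to the right of each group is its mean ± SD. WT PCN livers lie below every WT CONT liver for Dbp, Tef, Hlf and Bhlhe41, and all Pxr-/- PCN livers lie above all Pxr-/- CONT livers for Nfil3.

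*Dbp*, the founding member of the PAR bZIP family, had a signal of 14.78 to 15.47 in the 6 WT CONT livers, with a median of 15.32. The 5 WT PCN livers gave 13.94, 14.16, 14.27, 12.66 and 13.67. The groups did not overlap, and WT PCN replicate 4 was the lowest of all 23 livers. The change was -1.49 ± 0.24 (SE, 95% confidence interval -1.99 to -0.99, adjusted p = 0.000159, limma), a fall of 2.81-fold. A second *Dbp* probe fell by 1.35.

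*Tef*, the second PAR bZIP activator, ranged from 14.84 to 15.49 in WT CONT livers, with a median of 15.40. It was 14.62, 14.77, 14.74, 13.84 and 14.33 in WT PCN livers, again without overlap and again lowest in replicate 4. The change was -0.81 ± 0.14 (SE, adjusted p = 0.000405). The call rests on 3 of the 4 *Tef* probes, whose changes were -0.81, -0.75 and -0.93, while the last was lower by 0.55 and missed the fold required. The change of the *Tef* probe read for the gene was also under that fold with the values the authors deposited (-0.56) and with the arrays of each group stacked before quantile normalization (-0.58).

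*Hlf*, the third activator of the family, had WT CONT values between 10.05 and 10.95, with a median of 10.67. The WT PCN values were 9.80, 9.95, 9.76, 8.995 and 9.48, all below the lowest control. The change was -0.99 ± 0.18 (SE, adjusted p = 0.000374).

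*Usp2* had the widest spread of the 8 genes, 4.26 log2 units over all livers. WT CONT livers ranged from 9.92 to 12.55, with a median of 11.92, and WT PCN livers gave 9.78, 10.92, 11.14, 8.29 and 9.63. The groups overlapped, because WT CONT replicates 4 and 6, at 9.92 and 10.85, lay at or below the upper WT PCN livers. The change was -1.58 ± 0.45 (SE, 95% confidence interval -2.51 to -0.65, adjusted p = 0.0135), and the second *Usp2* probe fell by 1.22. The call was lost when the fit held only the WT arrays (the same change, adjusted p = 0.0716; over the other alternatives the adjusted p ran up to 0.952).

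*Bhlhe41*, which encodes the repressor DEC2, was dim. Its signal stood well above background on 4 of 6 arrays of WT CONT and on none of the 5 WT PCN arrays, where it read 5.14, 5.07, 4.89, 4.78 and 5.09. WT CONT livers ranged from 5.20 to 6.18, with a median of 5.59, and no WT PCN liver reached them. WT PCN has only a bound, and the WT CONT mean was 1.34-fold above it. That mean includes arrays not well above background, so 1.34-fold is not a minimum. The measured means were 5.63 and 4.99, and the adjusted p of 0.0267 (limma) belongs to the measured difference. The measured difference was -0.65, and the call was lost without WT CONT replicate 3 (-0.55), WT CONT replicate 4 (-0.59) or WT PCN replicate 4 (-0.58). It was also lost under 6 of the 14 other alternatives, where the difference ran from -0.78 to -0.33, and kept with the processed signal, at -1.88. The other *Bhlhe41* probe stood well above background on 2 of 6 arrays of WT CONT and on none of WT PCN, and was not called.

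*Rora*, the gene of the activator RORα, was lower by a small amount. WT CONT livers lay between 12.52 and 12.89, with a median of 12.76, and WT PCN livers at 12.11, 12.26, 12.16, 12.57 and 12.41. The change was -0.46 ± 0.09 (SE, adjusted p = 0.000589) and 1.38-fold, so it was not called. In WT PCN replicate 4, where *Dbp*, *Tef*, *Hlf* and *Usp2* were lowest, *Rora* was the highest of its group. A second kept probe was lower by 0.58 (adjusted p = 0.000164, limma) and narrowly missed the fold required. The last probe was set aside because only 5 of 23 arrays were above background.

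The D-box repressor *Nfil3* and the E-box repressor *Bhlhe40* (DEC1) did not pass the test in WT livers. *Nfil3* ranged from 9.96 to 11.11 in WT CONT livers, with a median of 10.30, and read 10.87, 9.69, 10.63, 11.86 and 10.84 in WT PCN livers. The difference was 0.35 ± 0.26 (SE, 95% confidence interval -0.20 to 0.89, adjusted p = 0.372), and it was 0.08 without WT PCN replicate 4 and 0.65 without WT PCN replicate 2. The highest *Nfil3* signal of all 23 livers was that of WT PCN replicate 4. *Bhlhe40* ranged from 10.90 to 11.66 in WT CONT livers and read 11.42, 11.94, 11.61, 10.77 and 11.38 in WT PCN livers, a difference of 0.15 with a 95% confidence interval from -0.21 to 0.52. WT PCN replicate 4 gave the lowest signal of all livers for *Bhlhe40*, as it did for *Dbp*, *Tef*, *Hlf*, *Usp2* and the dim *Bhlhe41*. How many of all genes were lowest in that liver was not counted.

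In *Pxr*-/- livers PCN raised 1 of the 8 genes, *Nfil3*, by 1.06 ± 0.25 (SE, adjusted p = 0.0145), which is 2.08-fold, and no member was called lower. Among all genes 1.42% were called higher and 0.860% lower, and the median change of the 8 genes was -0.32. *Nfil3* ranged from 9.50 to 10.41 in *Pxr*-/- CONT livers, with a median of 10.02, and from 10.95 to 11.28 in *Pxr*-/- PCN livers, with a median of 11.07. The groups did not overlap, and both *Nfil3* probes were called. The value was 0.94 to 1.14 when any 1 array was left out, and 1.04 and 1.08 within the washing batches, where it was not called.

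**Figure D2:**
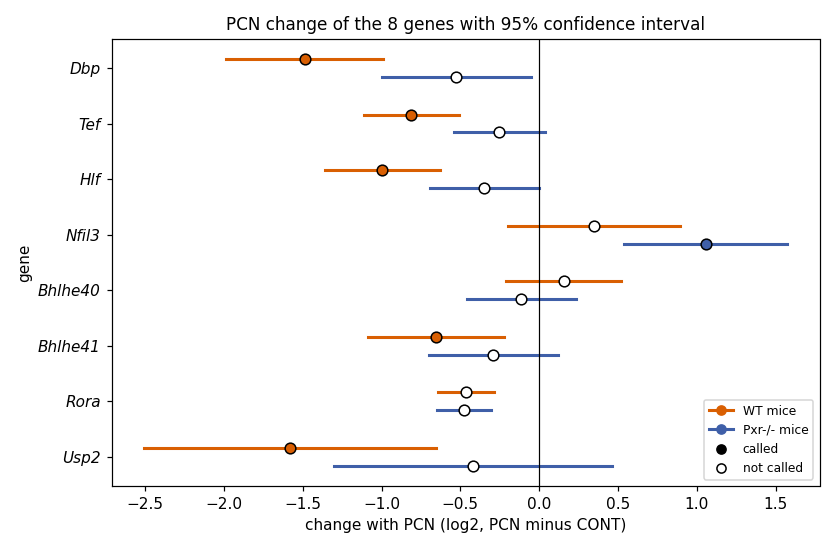
Change with PCN (x axis, log2, PCN minus CONT) of the 8 genes (y axis) in WT and Pxr-/- livers, as points with 95% confidence intervals from limma. Filled points were called. The 5 filled WT points lie left of 0. Usp2 stands at -1.58 and Tef at -0.81, while the WT point of Bhlhe41 is the measured difference of a probe not well above background in WT PCN livers. The single filled Pxr-/- point is Nfil3 at 1.06.

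The 3 PAR bZIP activators were not called in *Pxr*-/- livers. *Dbp* had a median of 15.36 (15.03 to 15.73) in *Pxr*-/- CONT and of 14.95 (14.04 to 15.22) in *Pxr*-/- PCN livers. The groups overlapped, and the difference was -0.53 with a 95% confidence interval from -1.0004 to -0.05 (adjusted p = 0.176). *Tef* went from a median of 15.37 (15.16 to 15.49) to one of 15.08 (14.91 to 15.31), a difference of -0.25 (interval -0.54 to 0.03). *Hlf* went from 10.68 (10.33 to 10.74) to 10.36 (9.80 to 10.54), a difference of -0.35 (interval -0.70 to -0.00094). All 3 point estimates were below 0, and none passed the adjusted test.

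On the probes read for the genes, *Rora* was the member whose change was nearest between the genotypes. Its *Pxr*-/- CONT livers lay between 12.95 and 13.12 and its *Pxr*-/- PCN livers between 12.41 and 12.75, without overlap. The change was -0.48 ± 0.08 (SE, adjusted p = 0.00207), or 1.39-fold, and was not called for its size. The difference between the genotypes in the *Rora* change was 0.01, with a 95% confidence interval from -0.23 to 0.26. On the second kept *Rora* probe the *Pxr*-/- change was -0.41 and the difference between the genotypes was -0.18, neither called.

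*Usp2* ranged from 11.35 to 12.54 in *Pxr*-/- CONT livers, with a median of 12.17, and from 11.27 to 12.27 in *Pxr*-/- PCN livers, with a median of 11.57. The difference was -0.42, with a 95% confidence interval from -1.30 to 0.46. *Bhlhe40* medians were 11.47 (11.30 to 12.01) and 11.44 (10.996 to 11.82), a difference of -0.11 (interval -0.46 to 0.23). *Bhlhe41* was 5.61 to 6.08 in *Pxr*-/- CONT and 5.17 to 6.71 in *Pxr*-/- PCN livers, and was well above background on 6 of 6 and 2 of 6 arrays. Its difference was -0.29 (adjusted p = 0.425), and -0.52 without *Pxr*-/- PCN replicate 1, the liver at 6.71 (adjusted p = 0.0255, under the fold required). Its other probe was lower by 0.54.

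Whether the PCN effect differed between the genotypes was tested directly as an interaction. No member was called, against 1.05% of all genes in either direction. At an unadjusted p under 0.05, limma gave 3 of the 8, *Dbp*, *Tef* and *Hlf*, against 15.1% of all genes. The WT effect minus the *Pxr*-/- effect was -0.96 for *Dbp* (95% confidence interval -1.65 to -0.27, adjusted p = 0.163), -0.65 for *Hlf* (adjusted p = 0.207) and -0.56 for *Tef* (adjusted p = 0.181). For *Usp2* it was -1.16 (interval -2.44 to 0.12) and for *Nfil3* -0.71 (interval -1.46 to 0.04). A PCN effect that passed in one genotype and not in the other was therefore not shown to differ for any of the 8 genes.

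Between the vehicle-treated genotypes no member was called, against 0.309% of all genes. At an unadjusted p under 0.05 limma gave 1 of the 8, *Rora*, which was higher in *Pxr*-/- CONT than in WT CONT livers by 0.30 ± 0.08 (SE, adjusted p = 0.128). The lowest *Pxr*-/- CONT liver, at 12.95, exceeded the highest WT CONT liver, at 12.89. *Nfil3* was lower by 0.40 (95% confidence interval -0.92 to 0.12), and *Usp2* was higher by 0.52 (interval -0.36 to 1.41), or by 0.15 without WT CONT replicate 4. *Dbp*, *Tef* and *Hlf* differed by 0.11, 0.07 and 0.03.

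Among PCN-treated livers 4 members were called higher in *Pxr*-/- than in WT mice, namely *Usp2* by 1.69 ± 0.45 (SE, adjusted p = 0.0238), *Dbp* by 1.07 ± 0.24 (SE, adjusted p = 0.00887), *Hlf* by 0.67 (adjusted p = 0.0220) and *Tef* by 0.63 (adjusted p = 0.0109). Over all genes 0.731% were called higher and 1.36% lower. This comparison uses the WT PCN arrays of the comparison above, so its calls are not independent of it. *Usp2* and *Tef* did not overlap between the groups. For *Dbp* and *Hlf* the lowest *Pxr*-/- PCN livers, at 14.04 and 9.80, lay within the WT PCN range. Without WT PCN replicate 4 only *Dbp* was called, at 0.79, and *Tef*, *Hlf* and *Usp2* were at 0.47, 0.51 and 1.30. *Rora* was higher by 0.29 (adjusted p = 0.0417), under the fold required. *Bhlhe41*, not well above background on any WT PCN array, was not called (measured means 5.50 and 4.99, adjusted p = 0.126, limma). Its *Pxr*-/- PCN mean was 1.22-fold above the background limit of the WT PCN arrays. That mean includes replicate 1 at 6.71, and only 2 of 6 of its arrays were well above background. Its measured difference of 0.52 was 0.28 without *Pxr*-/- PCN replicate 1.

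*Dbp*, *Tef*, *Hlf*, *Bhlhe41* and *Rora* shared the order of their group means: *Pxr*-/- CONT was highest, followed by WT CONT, *Pxr*-/- PCN and WT PCN. The highest pair, *Pxr*-/- CONT and WT CONT, did not differ by the test for any of them, and WT CONT was not tested against *Pxr*-/- PCN. The lowest pair, *Pxr*-/- PCN and WT PCN, was not called as different for the dim *Bhlhe41* or for *Rora*. How many of all genes had this order was not counted. The *Dbp* means were 15.33, 15.22, 14.80 and 13.74 in that order. *Usp2* kept the first and last places, with *Pxr*-/- PCN at 11.67 ahead of WT CONT at 11.56. *Nfil3* had another order, from 11.08 in *Pxr*-/- PCN over 10.78 in WT PCN and 10.43 in WT CONT to 10.03 in *Pxr*-/- CONT. Of its tested differences only that between the *Pxr*-/- groups was called. The *Bhlhe40* means lay between 11.28 and 11.54.

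The labels give 2 array washing batches, which each held 3 arrays of every group except for the 2 WT PCN arrays of the second. In a fit with a term per group and batch, the WT change with PCN in batch 1 was -2.78 for *Usp2*, -2.01 for *Dbp*, -1.45 for *Hlf*, -1.17 for *Tef* and 1.01 for *Nfil3*. These were the 5 members called there, against 7.50% of all genes in either direction. In batch 2 no member was called, against 4.31% of all genes, and 3 passed an unadjusted p under 0.05 in limma (*Dbp*, *Bhlhe40* and *Rora*). The batch 2 changes were -0.78 for *Dbp*, -0.43 for *Hlf*, -0.35 for *Tef*, -0.08 for *Usp2* and -0.51 for *Nfil3*.

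**Figure D3:**
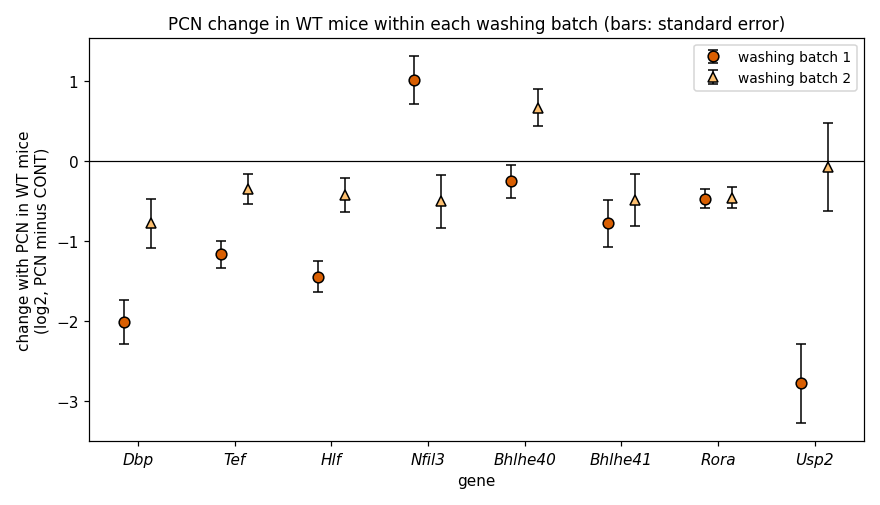
Change with PCN in WT livers (y axis, log2, PCN minus CONT) of the 8 genes (x axis) within washing batch 1 (circles, 3 against 3 livers) and batch 2 (triangles, 2 against 3 livers), with standard errors as bars. Usp2 stands at -2.78 in batch 1 and -0.08 in batch 2, and Rora at -0.48 and -0.46. Bhlhe41 was not well above background on the WT PCN arrays, so its points are measured differences only.

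The mice behind this contrast can be read singly. In batch 1, *Usp2* was 11.73, 12.11 and 12.20 in WT CONT and 9.78, 8.29 and 9.63 in WT PCN livers. In batch 2 it was 12.55, 9.92 and 10.85 in WT CONT and 10.92 and 11.14 in WT PCN livers, so that 2 of the 3 controls were below both treated livers. *Dbp* did not overlap in either batch, with 15.40 to 15.47 against 12.66 to 13.94 in batch 1 and 14.78 to 15.24 against 14.16 and 14.27 in batch 2. *Nfil3* was 9.96 to 10.33 against 10.84 to 11.86 in batch 1, and 10.12 to 11.11 against 9.69 and 10.63 in batch 2.

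*Rora* was even between the batches, at -0.48 and -0.46. The difference between the batches in the WT change was 2.70 ± 0.74 for *Usp2* (SE, adjusted p = 0.214), 1.23 ± 0.41 for *Dbp* (adjusted p = 0.303) and -1.52 ± 0.44 for *Nfil3* (adjusted p = 0.246). It was called for no member and for 0.00475% of all genes, that is 1 gene. At an unadjusted p under 0.05 limma gave 6 of the 8, all but *Bhlhe41* and *Rora*, against 10.5% of all genes. What else differed between the livers of the batches was not tested. In *Pxr*-/- livers the differences in the batches were -0.37 and -0.69 for *Dbp* and -0.18 and -0.66 for *Usp2*, none of them called.

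Of 14 measured core clock genes PCN lowered 2 in WT livers, *Cry2* by 0.61 (adjusted p = 0.00161) and *Nr1d1* by 0.78 (adjusted p = 0.0417), and raised none. CRY2 represses CLOCK and BMAL1, and *Nr1d1* encodes REV-ERBα, which represses from ROR elements. The median change of the list was -0.30. The paralog *Nr1d2* was lower by 0.39, under the fold required. *Cry1* was at -0.22 and did not pass the test (adjusted p = 0.326, limma). *Per1*, *Per2* and *Per3*, repressors of the feedback loop, were at -0.96, -0.56 and -0.40 with adjusted p of 0.130, 0.230 and 0.0591. *Ciart*, which encodes the repressor CHRONO, was at -1.24, also not called (adjusted p = 0.0584). The activators *Arntl*, which encodes BMAL1, and *Clock* were at 0.52 and -0.19, also without a call. *Npas2* did not pass the filter. In *Pxr*-/- livers none of the 14 was called, and limma gave *Nr1d1* a change of -0.69 (adjusted p = 0.112). *Ciart* and *Per3* were called higher in *Pxr*-/- PCN than in WT PCN livers, by 1.51 and 0.61.

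**Figure D4:**
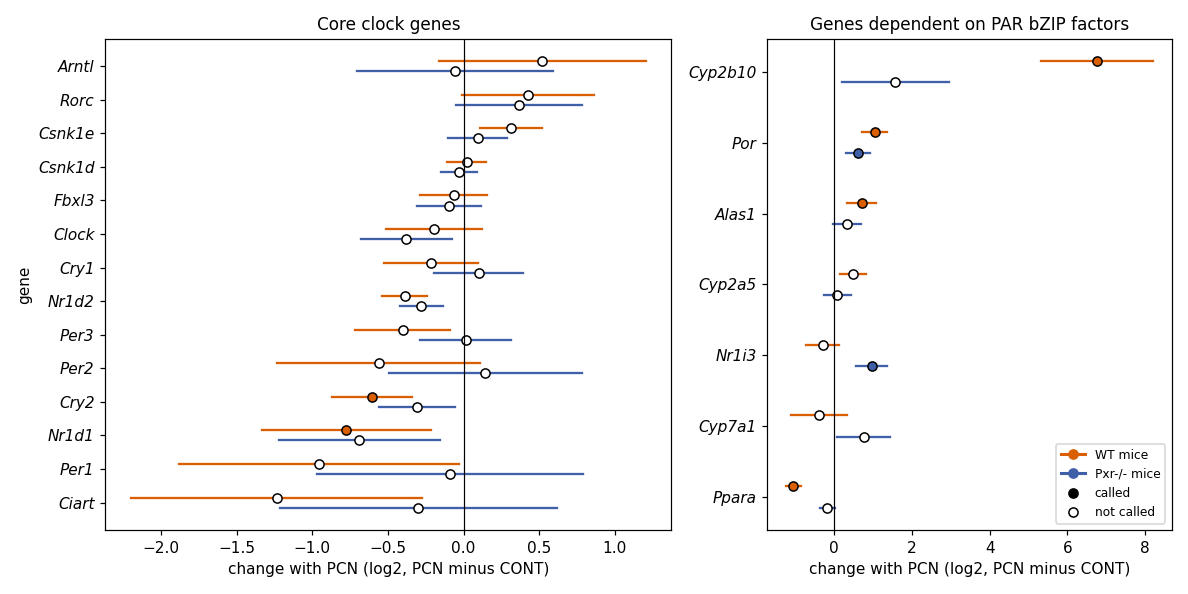
Change with PCN (x axis, log2, PCN minus CONT) of 14 core clock genes (left) and of 7 genes known to depend on PAR bZIP factors (right), with 95% confidence intervals, in WT and Pxr-/- livers. Filled points were called. In the left plot only Cry2 and Nr1d1 were called in WT livers, while in the right plot Cyp2b10 stands at 6.76 and Ppara at -1.05.

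Genes known to depend on PAR bZIP factors in the liver moved in both directions. Of 7 measured, PCN raised 3 in WT livers, the cytochrome P450 *Cyp2b10* by 6.76, *Por*, which encodes the P450 reductase, by 1.04, and *Alas1*, the first enzyme of heme synthesis, by 0.70. All 3 are also known targets of PXR or of its relative CAR. *Ppara*, the gene of the fatty acid receptor PPARα, fell by 1.05 (adjusted p = 2.17e-07). In *Pxr*-/- livers *Por* rose by 0.62 and *Nr1i3*, which encodes CAR, by 0.97 (adjusted p = 0.00531). The PCN effect differed between the genotypes for 3 of the 7, by 5.19 for *Cyp2b10* (adjusted p = 0.00427), by -0.87 for *Ppara* (adjusted p = 0.000882) and by -1.27 for *Nr1i3* (adjusted p = 0.0213), which was at -0.30 in WT livers. *Cyp2a5* was higher in *Pxr*-/- CONT than in WT CONT livers by 0.76 (adjusted p = 0.0365). None of 5 further rhythmic output genes was called in any of the 5 comparisons.

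Markers of other liver cells were read beside these changes. Of the cholangiocyte markers 1 of 5, *Sox9*, was called higher in WT livers with PCN, and their summed log2 level ranged from 10.50 to 12.20 in WT CONT and from 11.68 to 12.96 in WT PCN livers. None of the markers of Kupffer, stellate and endothelial cells, lymphocytes and erythroid cells was called there. The hepatocyte markers had summed levels of 20.15 to 20.41 in WT CONT and 20.15 to 20.30 in WT PCN livers, and none was called there. These sums were taken on linear signals, so the brightest markers, *Alb* and *Serpina1a*, weigh most in them. In *Pxr*-/- livers the hepatocyte marker *Apoa1* was called higher with PCN, by 0.62. Between PCN-treated livers *Sox9* was called lower in *Pxr*-/- than in WT mice, at -0.76. The part of cell composition in the changes of the 8 genes was not tested.

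The genes whose signals ran most like a member over the 23 arrays, after removal of the washing batch, are given as a description. The arrays include all 4 groups, so the coefficients hold the differences between groups. *Dbp* was most like *Pcsk4* (Pearson r = 0.960), *Cry2* (0.918), *Crebl2* (0.918), *Arsa* (0.906) and *Narf* (0.903). The nearest gene was *Tom1* for *Tef* (0.944), *Pcsk4* again for *Hlf* (0.941) and *Gm38444* for *Usp2* (0.969). It was *Cdc14b* for *Rora* (0.908), *Fam214b* for *Bhlhe41* (0.884), *Rusc1* for *Bhlhe40* (0.836) and *Efna1* for *Nfil3* (0.83).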

How the data were processed

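Liver RNA of 23 mice was labeled with Cy3 and hybridized to 1-color Agilent arrays. The authors deposited the scanner files of Agilent Feature Extraction 10.10.1.1 (per the submitters' processing notes), whose median signal is a linear intensity, and a table of log2 values that the authors had filtered, adjusted for array washing and put through CrossNorm, which served as an alternative. Here the median signal of 59305 non-control spots was log2 transformed and averaged per probe after 2225 outlier spots were set to missing. A probe was kept when well above background on at least 50% of the arrays of 1 group, which left 32087 of 56605 probes. Kept probes were quantile normalized. All 23 arrays were fitted in limma 3.58.1 (R 4.3.3) with 1 term for each group plus washing batch, leaving 18 residual degrees of freedom, for 5 comparisons. P-values were adjusted by Benjamini-Hochberg over all kept probes, two-sided, and calls required an adjusted p no higher than 0.05 together with a change above 1.5-fold. Owing to the batch term, fitted changes need not equal differences of group means.

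The number of arrays limits the precision. The labels give 1 mouse per array. The 8 genes and the lists were chosen with earlier results of these data known. The lists were 15 core clock genes, 7 genes dependent on PAR bZIP factors, 5 further rhythmic output genes and liver cell markers. Named were the 8 members, core clock genes, listed genes called in a comparison and, by the highest Pearson r over the arrays, 5 genes like *Dbp* and 1 like each other member. The fit with a term per group and batch was chosen after seeing the data. Of the genes with a kept probe 71.7% were found in the RefSeq table, including all 8 members. The fit was tested on simulated data. Alternatives changed the background correction, normalization, filter, washing batch, slide, samples in the fit, replicate number, probe rule and call rule, and left out each array.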

Additional observations from a re-analysis of the deposited data

Results flagged for a closer look

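*Bhlhe41* in *Pxr*-/- PCN replicate 1 had a normalized log2 signal of 6.71, far above the other 5 livers of that group, which lay between 5.17 and 5.50. It was the only 1 of 32 sets of a gene and a group in which the highest or lowest liver stood that far from its neighbor, and chance alone flags about 1 in 20. The probe was well above background on 2 of the 6 arrays of this group.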

How the results depend on the processing

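The fall of *Dbp* and *Hlf* in WT livers was called under every alternative but washing batch 2 alone, which held 2 WT PCN arrays. The 5 calls in WT livers became 3 with the deposited values and with stacked quantile normalization, and 0 in washing batch 2 alone. The 1 call in *Pxr*-/- livers became 2 with no fold threshold, as *Rora* joined *Nfil3*, and 0 in either washing batch alone. The 4 calls between PCN-treated livers became 2 with the deposited values, with stacked quantile normalization and with only the groups compared, 0 in washing batch 2 alone, and between 1 and 4 when 1 array was left out (1 without WT PCN replicate 4, 2 without *Pxr*-/- PCN replicate 3 or 6). The deposited values moved the median of all probes to 0.11 in WT livers and to -0.18 between PCN-treated livers. The cause of these differences was not tested. Smaller fits hold fewer arrays.

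Direction turned only for values that were not called. Between the vehicle-treated genotypes *Hlf* was -0.11 with the deposited values and with stacked quantile normalization. In washing batch 1 alone it was -0.31, with *Dbp* at -0.030, *Tef* at -0.056, *Usp2* at -0.16 and *Bhlhe40* at -0.053. In the same batch *Bhlhe40* was -0.26 with PCN in WT livers, 0.010 in *Pxr*-/- livers, -0.27 in the interaction and 0.21 between PCN-treated livers, where *Nfil3* was -0.14. The interaction of *Rora* was -0.0073 with normexp, -0.084 with the mean of all kept probes and -0.087 in batch 1 alone. In washing batch 2 alone *Nfil3* was -0.51 with PCN in WT livers, and the interaction was 0.14 for *Hlf*, 0.0068 for *Bhlhe41* and 0.58 for *Usp2*. *Bhlhe40* between PCN-treated livers was 0.0035 without a batch term. Leaving out 1 array gave -0.046 to 0.068 for the *Rora* interaction, -0.021 to 0.11 for *Tef* and -0.069 to 0.10 for *Hlf* between the vehicle-treated genotypes, and -0.16 to 0.12 for *Bhlhe40* between PCN-treated livers.

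Whether the replicate numbers pair the mice was not settled. Of 33 same-number pairs 11 had a correlation of deviations over 0.1 (from -0.25 to 0.49), and pairs of unlike number were not compared. The SE of the *Usp2* change in WT livers was 0.32 with a replicate block and 0.45 without. A replicate block changed no call of a member, and *Dbp* in WT livers was -1.50 with it. Slide as a random block changed no call either.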
